A study of Mus musculus with 36 samples.

Results

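The 6 genes described here, Rhox1, Rhox4b, Rhox5, Rhox6, Rhox9 and Rhox10, belong to the Rhox (reproductive homeobox) cluster of the mouse X chromosome. The list was chosen by their levels (TPM and counts) in these same libraries, so what is given of them is a description and carries no test. They are 6 of 34 Rhox genes among the 29267 genes listed for EpiSCs, BV+SC+ cells and the libraries with and without SGC0946, and 6 of 42 Rhox genes among the 50600 genes listed for the sorted Day 3 cells.

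The study followed mouse epiblast stem cells (EpiSCs), cultured cells in the primed pluripotent state, on their way to naive pluripotency under BMP4 (BiPNT), and 11 bulk RNA-seq libraries of 3 experiments were used. In the sorted experiment, Day 3 cells of BiPNT in stage 1 medium were separated by the surface receptor c-Kit into c-Kit+ cells (n = 2) and c-Kit- cells (n = 2). In the Day 6 experiment, cells positive for both reporters of the line, Blimp1-mVenus (BV) and Stella-ECFP (SC), were sorted (n = 2) and set beside EpiSCs (n = 3). The labels call them PGCLCs, primordial germ cell-like cells. By the labels, BV+SC+ cells arose from EpiSCs carrying the BVSC reporter, kept in iCD1 medium with BMP4, EPZ5676 (an inhibitor of the histone methyltransferase DOT1L) and EPZ6438 (an inhibitor of EZH2) and then in 2i with Vitamin C. Their sample descriptions name 2iJi for replicate 1 and GK15 for replicate 2, so medium and replicate cannot be told apart. EpiSCs were kept in N2B27 with Activin A, bFGF and XAV939, and the labels do not name the line of each EpiSC library. In the inhibitor experiment, Day 3 cells with and without SGC0946, another DOT1L inhibitor, gave 1 library each, and these are known as such from their titles. Nothing says that replicates came from separate cultures, so p-values measure only the spread between these libraries.

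Rhox genes encode homeodomain transcription factors of reproductive tissues, and the mouse cluster has grown by tandem duplication. Rhox5 (Pem) is the founding member, known from embryonic stem cells, extraembryonic tissue and Sertoli cells. Rhox6 and Rhox9 (Psx1 and Psx2) were named for the placenta and are also known from germ cells, Rhox10 is known from male germ cells, and Rhox4 (Ehox) from embryonic stem cells and placenta. DNA methylation is known to keep much of the cluster silent in the embryo.

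In GENCODE M21 on GRCm38, the 42 Rhox genes spanned chrX:37213804-38306028, or 1.09 Mb. All 6 genes are protein-coding, and no annotated gene overlapped them. From the start of the cluster came Rhox1 (chrX:37213804-37222258, minus strand), Rhox4b (chrX:37432494-37437279, plus), Rhox5 (chrX:37804842-37808876, plus), Rhox6 (chrX:37826910-37829857, plus), Rhox9 (chrX:37899097-37901770, minus) and Rhox10 (chrX:38066475-38071691, plus).

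The 250 bases before the RefSeq start site (GRCm38.p6) are shown because CG sites are where DNA is methylated, and the genes differ in how many they hold. Entries were found for 4 of the 6 genes. Sequences run 5′ to 3′ on the strand of the gene, with each CG in capitals.
Rhox1 promoter, chrX:37222259-37222508, minus strand: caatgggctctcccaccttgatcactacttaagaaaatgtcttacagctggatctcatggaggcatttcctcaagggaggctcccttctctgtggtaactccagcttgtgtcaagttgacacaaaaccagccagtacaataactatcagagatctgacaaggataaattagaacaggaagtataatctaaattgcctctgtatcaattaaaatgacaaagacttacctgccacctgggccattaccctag
Rhox4b promoter, chrX:37432244-37432493, plus strand: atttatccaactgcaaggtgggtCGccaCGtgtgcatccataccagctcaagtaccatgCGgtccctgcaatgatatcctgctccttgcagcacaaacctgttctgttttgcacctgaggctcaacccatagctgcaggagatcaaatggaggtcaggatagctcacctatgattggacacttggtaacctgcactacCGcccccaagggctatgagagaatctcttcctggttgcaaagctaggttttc
Rhox5 promoter, chrX:37754358-37754607, plus strand: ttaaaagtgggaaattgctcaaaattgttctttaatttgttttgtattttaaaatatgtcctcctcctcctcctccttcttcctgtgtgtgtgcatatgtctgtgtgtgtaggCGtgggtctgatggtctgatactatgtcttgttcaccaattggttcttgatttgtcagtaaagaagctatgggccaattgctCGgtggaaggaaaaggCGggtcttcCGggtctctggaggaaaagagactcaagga
Rhox10 promoter, chrX:38066225-38066474, plus strand: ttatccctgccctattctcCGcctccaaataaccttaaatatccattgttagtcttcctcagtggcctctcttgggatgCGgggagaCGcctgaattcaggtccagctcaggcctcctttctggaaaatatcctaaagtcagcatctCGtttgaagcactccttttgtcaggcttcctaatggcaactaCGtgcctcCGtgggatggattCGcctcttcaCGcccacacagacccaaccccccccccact

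The Rhox1 window held 0 CG sites, those of Rhox4b and Rhox5 held 4 each, and that of Rhox10 held 8. The median over 32851 mouse promoters was 6 (quartiles 2 and 16), and over 28 Rhox promoters it was 4. CG occurred in 92.1% of all promoters of this length. Of 4 further motifs searched on both strands, CACGTG, a palindrome, lay in the Rhox4b window 224 bases before the start and in those of Rhox4a2, Rhox4e, Rhox4f and Rhox4g, against 6.02% of all promoters. TATAAA, GCCNNNGGC and AGATAA, held by 12.4%, 13.7% and 9.99% of all promoters, were in none of the 4 windows. For Rhox5 the RefSeq start lay 50234 bases upstream of the start in GENCODE M21, whose Rhox5 transcripts begin inside the coding sequence.

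Reads can be divided between genes of like sequence, so the coding sequences of the pairs that matter here were aligned. Rhox6 and Rhox9 were identical at 620 of 684 coding bases (90.6%), and neither shared at least 98% over 75 bases with any gene. Reads can still be divided over shorter stretches that both share. Rhox4b differed from Rhox4g at 3 of 618 coding bases, from Rhox4d at 2, from Rhox4e at 5 and from Rhox4a at 8. By the same criterion Rhox4b shared 100% of its transcript with Rhox4d, Rhox4e and Rhox4g, and 99.9% with Rhox4a and Rhox4a2. It shared 56.9% with Rhox4c and 56.9% with Rhox4f. The value of Rhox4b itself therefore depends on how reads were divided among 8 copies, and their sum is given beside it. For each pair, the stretch of 120 coding bases with the most differences is shown, with 24 between Rhox6 and Rhox9 (coding positions 343 to 462) and 3 between Rhox4b and Rhox4g (positions 41 to 160, across an intron). Bases that differ are in capitals.
Rhox6, chrX:37827626-37827745, plus strand: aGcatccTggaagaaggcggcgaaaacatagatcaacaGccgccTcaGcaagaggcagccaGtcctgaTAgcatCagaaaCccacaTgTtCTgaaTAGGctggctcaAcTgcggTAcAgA
Rhox9, chrX:37901032-37901151, minus strand: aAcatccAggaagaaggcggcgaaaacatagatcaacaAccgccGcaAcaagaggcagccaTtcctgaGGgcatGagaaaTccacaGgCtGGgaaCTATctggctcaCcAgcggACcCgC
Rhox4b, chrX:37432665-37432974, plus strand: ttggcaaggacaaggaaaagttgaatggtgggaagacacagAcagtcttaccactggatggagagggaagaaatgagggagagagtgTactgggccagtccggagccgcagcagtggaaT
Rhox4g, chrX:37650751-37651064, minus strand: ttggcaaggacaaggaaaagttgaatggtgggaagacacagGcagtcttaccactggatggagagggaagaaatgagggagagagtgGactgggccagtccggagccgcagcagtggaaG

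The libraries held 1726038 to 1841442 expected counts in sorted cells, 2444211 to 3070115 in EpiSCs, 14778809 and 18099059 in BV+SC+ cells, and 4776143 and 4577685 with and without SGC0946. A count of 0 in an EpiSC library allows up to 0.977 to 1.23 CPM (counts scaled to library size), as 3 counts would give, while 3 counts are 0.203 and 0.166 CPM in BV+SC+ cells. Floors and intervals cover counting error only. Kit was at 99.6 and 96.0 TPM (RSEM's level per transcript length and library size) in c-Kit+ cells and 4.81 and 3.24 TPM in c-Kit- cells. Prdm1, which encodes Blimp1, was at 128 TPM in both BV+SC+ libraries against at most 0.54 TPM in EpiSCs, and Dppa3, which encodes Stella, was at 1162 and 1202 TPM against 0. Dot1l was at 66.8 TPM with and 62.1 TPM without its inhibitor. Xist was at 37.2 to 74.3 TPM in the 4 sorted libraries and at most 1.83 TPM in the other 7, and the Y-linked Eif2s3y had no count in the 4 and 47.8 to 150 TPM in the 7. The sorted cells therefore differed from the rest in sex chromosomes as well as in gene list and kit, so groups are compared within an experiment. Ratios within a library and profiles over the 7 libraries of 1 gene list are given as description only.

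Day 6 BV+SC+ cells held far more RNA of Rhox5, Rhox6 and Rhox9 than EpiSCs, while Rhox1 was low and Rhox4b and Rhox10 were near the limit of detection. In bulk samples, fewer cells of a type and less RNA per cell cannot be told apart. Rhox6 was listed at 224 and 351 TPM (1533 and 2886 counts) in BV+SC+ replicates 1 and 2 and had no count in the 3 EpiSC libraries. Rhox9 was at 249 and 365 TPM (1421 and 2511 counts), again without a count in EpiSCs. The groups did not overlap, and against 3 counts per EpiSC library Rhox6 was at least 123-fold and Rhox9 at least 110-fold higher in BV+SC+ cells.

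Rhox5 was the highest of the 6 in BV+SC+ cells, at 281 and 770 TPM (1095 and 3525 counts), and the only one of them with counts in EpiSCs. These were 2, 2 and 3 counts, or 2.90, 3.01 and 5.36 TPM. Every BV+SC+ library lay above every EpiSC library. The mean levels were 525 ± 345 TPM (SD, n = 2) and 3.76 ± 1.39 TPM (SD, n = 3), and the ratio of CPM was 170 with a 95% counting interval of 82.4 to 423. The fitted log2 fold change was 7.33 ± 0.61 (SE), and it was 7.88 without BV+SC+ replicate 1 and 6.41 without replicate 2.

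Rhox1 was at 1.75 and 8.89 TPM (10 and 61 counts) in BV+SC+ cells and had no count in any other library of the 11. On the mean of the BV+SC+ libraries it was at least 1.91-fold higher than in EpiSCs. Replicate 1, at 0.677 CPM, lay below the 0.977 to 1.23 CPM that 3 counts give in EpiSCs, so this bound rests on replicate 2. Rhox4b had 0 and 6.11 counts in BV+SC+ replicates 1 and 2, and Rhox10 had 4 and 0. Neither had a count in EpiSCs, and at the depth of the EpiSC libraries a difference of that size was not detectable. Rhox10 was without a count in the other 10 libraries as well.

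In this comparison 3 of the 6 genes, Rhox5, Rhox6 and Rhox9, passed the filter on low counts, and all 3 were called higher at an adjusted p under 0.05 with a fold change over 2. Of the 11792 genes tested, 16.8% were called higher and 17.2% lower. With every gene that had a count, in a fit that used a common trend for the spread of all genes, all 6 were tested and Rhox1 was called too, where 14.4% of all genes were called higher. In 4 of the 6 genes every BV+SC+ library lay above every EpiSC library. That held for 38.0% of the genes past the filter, a set without Rhox1, which is among the 4. Members that passed only through the group where they are high had to differ, and nothing is read from these counts. The median log2 fold change of the 422 X-linked genes tested was -0.01, beside 0.05 over all genes, with 96 called higher and 98 lower.

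**Figure D1:**
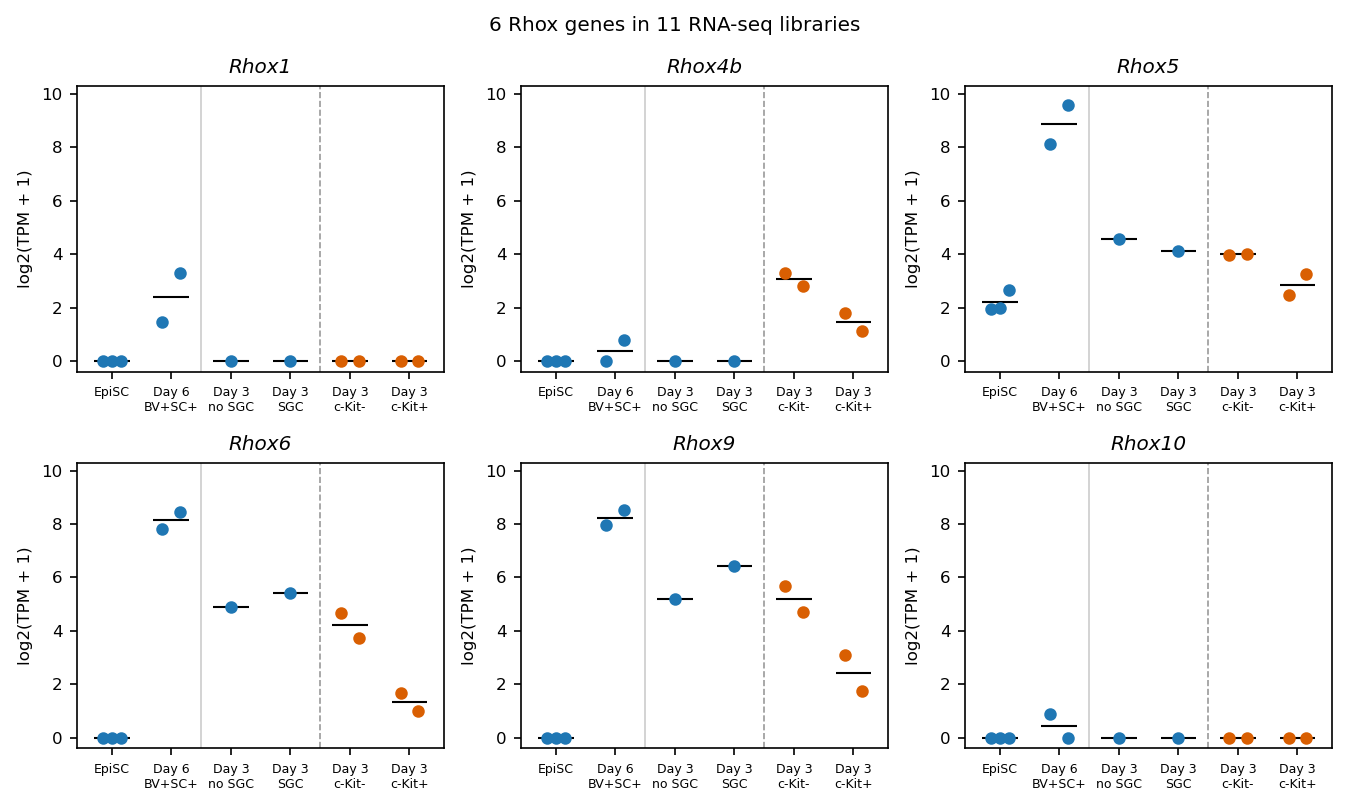
Level of each of the 6 genes in the 11 RNA-seq libraries as log2(TPM + 1), 1 point per library, with a bar at the group mean. Rhox5, Rhox6 and Rhox9 were higher in Day 6 BV+SC+ cells than in EpiSCs, and Rhox6 and Rhox9 were at 0 in all 3 EpiSC libraries. The dashed line sets apart the sorted libraries, which were made with another kit and gene list, and orange marks them.

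The rest of the cluster had few or no counts in EpiSCs, where 3 counts are 0.977 to 1.23 CPM. Levels below that, such as those of Rhox4d at 0.499 and 0.452 CPM in BV+SC+ cells, could go unseen there. Of the 28 other Rhox genes, 10 had no count in any of the 7 libraries of this gene list, and 15 had over 3 counts in at least 1 of them. None of the 28 had over 3 counts in an EpiSC library, and all but 1 of the 15 had no count there. The exception, Rhox8, known from Sertoli cells, had 3 counts in all over the 3 EpiSC libraries against 17.4 and 6.59 in BV+SC+ replicates 1 and 2, a CPM ratio of 2.06 (0.625 to 10.7). All Rhox genes summed to 774 and 1583 TPM in BV+SC+ cells and to 3.49, 4.25 and 5.36 TPM in EpiSCs. Rhox5, Rhox6 and Rhox9 made up 97.5% and 93.9% of the BV+SC+ sums.

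None of the 28 other genes passed the filter on low counts. Without it, 18 were tested by edgeR and 7 were called, all higher in BV+SC+ cells and all without a count in EpiSCs. In that fit edgeR set the spread of every gene to a common trend (infinite prior degrees of freedom), so its p-values leave out the spread between each gene's own replicates and are too small for these genes. They are therefore not given. Rhox4g had 15.2 and 142 counts in BV+SC+ replicates 1 and 2, at least 4.21-fold above EpiSCs, and Rhox2a had 16.7 and 121, at least 3.71-fold above. Rhox4a had 17.5 and 118 counts and Rhox4e had 21.0 and 69.8, at least 3.65-fold and 2.48-fold above. All 4 lie in the repeated stretch of the cluster that also holds Rhox4b. In replicate 1, Rhox4g, Rhox2a and Rhox4a were at 1.03, 1.13 and 1.18 CPM. These lie within the 0.977 to 1.23 CPM that 3 counts give in EpiSCs, so their bounds rest on replicate 2. With 1 EpiSC library left out, Rhox2a, Rhox4a and Rhox4e passed the filter, but only through BV+SC+ cells, so their higher levels carry no test. The other 3 called genes were Rhox4a2 with 0 and 38.1 counts, Rhox13 with 9 and 23, and Rhox7b with 0 and 28.

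Summed over the 8 Rhox4 copies, which avoids dividing reads among them, there were 61.0 and 385 counts (9.48 and 50.1 TPM) in BV+SC+ cells and none in EpiSCs. As 1 feature they passed the filter only through BV+SC+ cells, so their call as higher was set in advance and carries no test. The 8 Rhox2 copies summed to 18 and 177 counts and the 7 listed Rhox3 copies to 0, so the repeats of the cluster did not share 1 level.

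**Figure D2:**
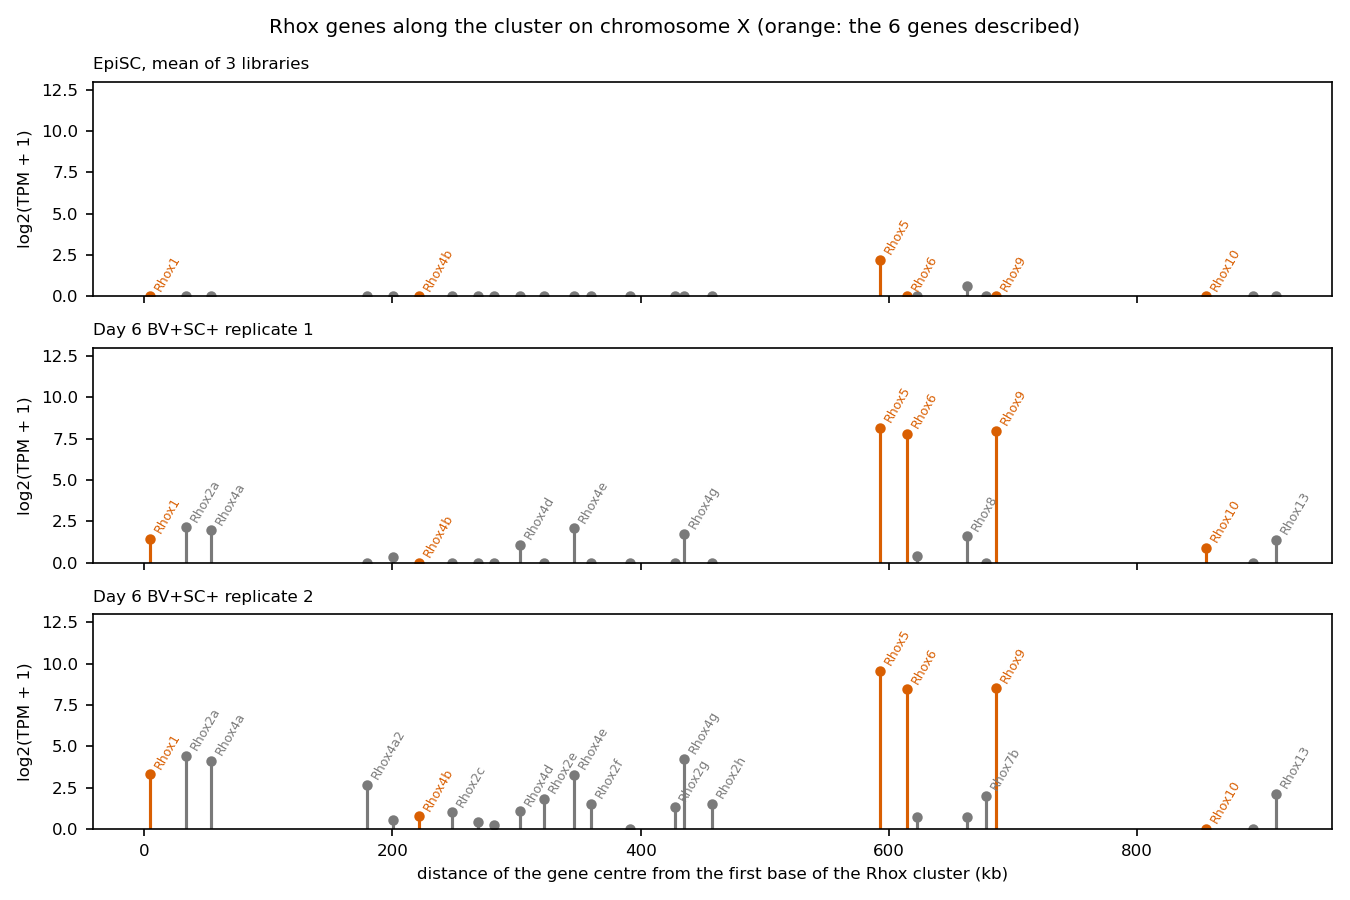
Rhox genes by the distance of their centre from the first base of the cluster in kb, with log2(TPM + 1) as height, in EpiSCs (mean of 3 libraries) and in each BV+SC+ library. Orange marks the 6 genes described. Rhox5, Rhox6 and Rhox9 stood above their neighbours in both BV+SC+ libraries, and more of the genes between Rhox2a and Rhox4g had a level above 0 in replicate 2.

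The libraries of BV+SC+ cells, from 2iJi (replicate 1) and GK15 (replicate 2), differed over the cluster. Rhox5 was 2.63 times as high in replicate 2 as in replicate 1 in CPM (95% counting interval 2.46 to 2.82), Rhox6 1.54 times (1.44 to 1.64) and Rhox9 1.44 times (1.35 to 1.54). Larger ratios were found for Rhox1 at 4.98 (2.53 to 10.9), the Rhox4 copies at 5.15 (3.93 to 6.87), the Rhox2 copies at 8.03 (4.94 to 13.9) and the Rhox7 copies at 13.5 (3.45 to 116), the last on 2 and 33 counts. Rhox13 had a ratio of 2.09 (0.930 to 5.12), which its interval does not set apart from equal levels, and Rhox8 went the other way at 0.336 (0.118 to 0.853). Over all genes compared, the median log2 ratio in CPM + 1 was -0.07. Many of the Rhox genes are near copies that share reads or rest on few counts, so they are not separate observations. Rhox5 and Rhox1 were higher in replicate 2 by over 1 in log2(TPM + 1), at 1.45 and 1.85, as were 5.45% of the 13574 genes compared (740), while 806 were lower by over 1. With 1 library per medium this has no replicate check. Gata2, a trophoblast marker, was at 15.2 TPM in replicate 1 and 4.16 TPM in replicate 2, and its part in the result was not tested.

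**Figure D3:**
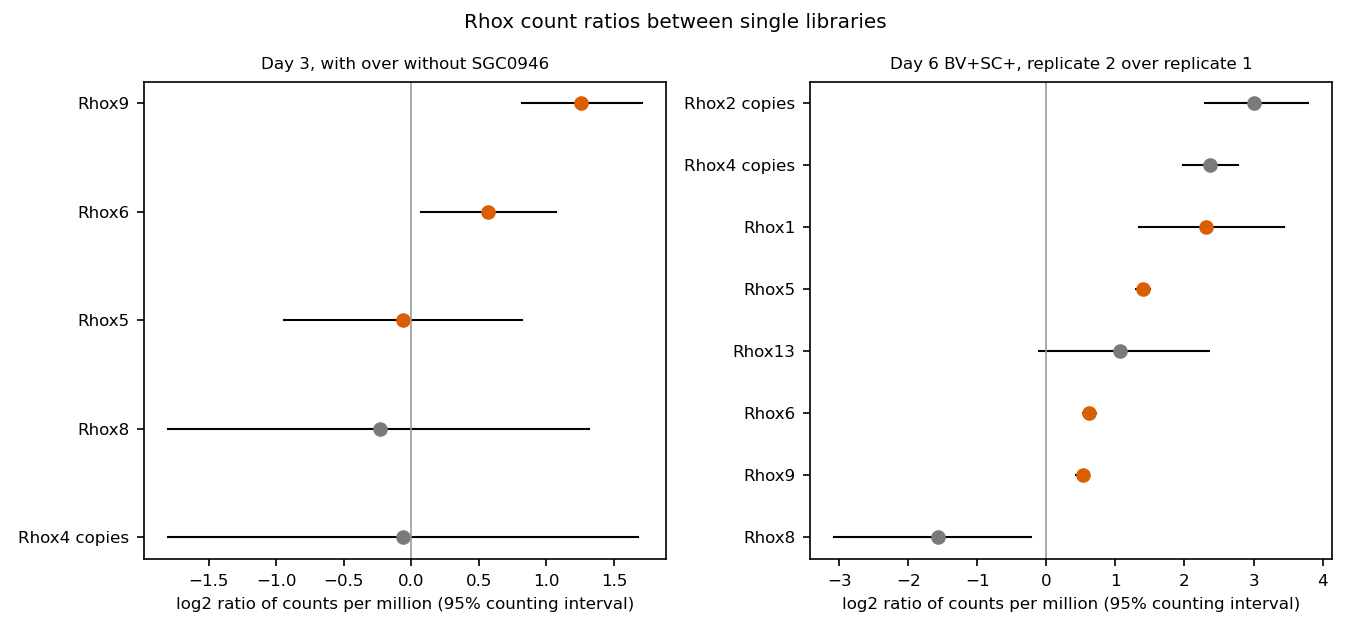
Ratios of CPM between single libraries on a log2 axis, with 95% counting intervals, for SGC0946 (left) and for the BV+SC+ replicates (right). Orange marks 4 of the genes described, and grey marks other Rhox genes or the sums of copies. Among the items plotted, Rhox9 had the highest ratio on the left and the Rhox2 copies on the right.

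Other germline genes known to be repressed by DNA methylation in somatic cells were also higher in BV+SC+ cells. Of a list of 20 germline genes of this kind, 14 were tested and 14 were higher in BV+SC+ cells, with a median log2 fold change of 6.97 beside 0.05 over all genes. The median was 4.49 with the 7 genes that had no count in EpiSCs set to their lower bounds against 3 counts. These 7, Dazl, Fkbp6 and Stk31 among them, passed the filter only through BV+SC+ cells and so had to be higher. Others of the 14 were near 0 in EpiSCs too, such as Ddx4 at 0 to 0.47 TPM and Rec8 at 0 to 0.61 TPM. The count of 14 therefore carries no test. Like the other gene lists, this one was chosen with earlier results of these data known. Over all genes tested, 16.8% were called higher. Dazl, an RNA-binding protein of germ cells, was at a mean of 72.3 TPM, Fkbp6 at 32.3 TPM and Stk31 at 16.6 TPM, each at 0 in EpiSCs. The whole list summed to 222 to 300.4 TPM in BV+SC+ cells and 2.99 to 5.62 TPM in EpiSCs.

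Of 23 genes of DNA methylation and of the complexes that repress germline genes, 5 were higher and 4 lower in BV+SC+ cells (median log2 fold change 0.44). Dnmt3b, a de novo DNA methyltransferase, fell from a mean of 707 to 29.7 TPM (log2 fold change -4.48, adjusted p = 4.65e-05, edgeR). Dnmt3a fell from 114.5 to 34.6 TPM and Uhrf1, which brings the maintenance enzyme to DNA, from 228 to 85.9 TPM (adjusted p of 0.00015 and 5.76e-05 by edgeR). Tet3, which oxidizes methylated cytosine, fell from 10.7 to 1.14 TPM (adjusted p = 0.000206, edgeR). Dnmt3l, a cofactor of the de novo enzymes, went from 0 to 72.4 TPM and passed the filter only through BV+SC+ cells. Tet2 went from 1.02 to 9.84 TPM (adjusted p = 1.62e-05, edgeR). Tet1, Suz12 and Max were the other 3 higher genes. Dnmt1, the maintenance enzyme, was not called, with 129 TPM in EpiSCs and 206 TPM in BV+SC+ cells.

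By cell type markers, 12 of 12 PGC genes tested were higher in BV+SC+ cells (median log2 fold change 7.10, or 5.86 with genes at 0 set to their bounds), as were 8 of 9 naive genes (5.80, or 5.68), and 6 of 8 primed genes were lower and 1 higher (-4.14). Prdm1 and Dppa3, on the PGC list, marked the reporters by which BV+SC+ cells were sorted, so their calls were set by the sort. Tfap2c, at 0.68 to 0.86 TPM in EpiSCs, passed the filter only through BV+SC+ cells, as did the genes at 0 there. The counts of PGC and naive genes therefore carry no test. Over all genes tested, 16.8% were called higher and 17.2% lower. Markers of trophoblast, another cell type for which Rhox6 and Rhox9 are known, summed to 133 to 339 TPM in BV+SC+ cells and 50.2 to 62.8 TPM in EpiSCs. Of 5 tested 4 were higher in BV+SC+ cells, among them Igf2 at a mean of 123 TPM and Peg10 at 52.4 TPM. Prl3d1 and Tpbpa had no count in either group, and the part of these cells in the Rhox levels was not tested. Of 8 endoderm markers 1 was tested and was not called.

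In the sorted Day 3 cells, Rhox9 and Rhox6 were higher in c-Kit- than in c-Kit+ cells, on few counts. Rhox9 was at 50.0 and 24.7 TPM (39 and 19 counts) in c-Kit- replicates 1 and 2 and at 7.61 and 2.36 TPM (6 and 2 counts) in c-Kit+ replicates 1 and 2. Rhox6 was at 24.4 and 12.3 TPM (22 and 11 counts) and at 2.19 and 1.02 TPM (2 and 1 counts). For both genes, both c-Kit- libraries lay above both c-Kit+ libraries. Rhox9 was 6.93 times as high in c-Kit- cells in CPM (95% counting interval 3.30 to 16.8), with a fitted log2 fold change of -2.75 ± 0.61 (SE) in c-Kit+ cells. It was -3.77 without c-Kit+ replicate 1, -2.17 without c-Kit+ replicate 2 and between these values without either c-Kit- library. Rhox6 was 10.5 times as high (3.30 to 53.6), with -3.29 ± 0.72 (SE), which became -3.88 without c-Kit+ replicate 1.

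Rhox5 was at 14.9 and 15.1 TPM in c-Kit- cells, on 8 counts in each library, and at 4.53 and 8.56 TPM in c-Kit+ cells, on 3 and 5 counts. The libraries did not overlap, but the ratio of 1.91 had an interval of 0.772 to 5.16, so that a difference was not detectable at this depth. Rhox4b was at 8.93 and 6.11 TPM (7 and 4.73 counts) in c-Kit- cells and at 2.52 and 1.17 TPM (2 and 1 counts) in c-Kit+ cells, a ratio of 3.83 (1.03 to 21.1). The 8 Rhox4 copies summed to 10 and 26 counts in c-Kit- cells and to 6 and 2 counts in c-Kit+ cells. In c-Kit- replicate 2 the largest part of that sum, 11.8 counts, was given to Rhox4a2. Rhox1 and Rhox10 had no count in any sorted library.

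Rhox6 and Rhox9 passed the filter on low counts, and both were called lower in c-Kit+ cells, where 12.9% of the 11018 genes tested were called lower and 9.98% higher. Both passed it only through c-Kit- cells, where they are high, so these calls, with or without a replicate left out, carry no test. Rhox6 was not tested without c-Kit- replicate 1 and lost its call without c-Kit+ replicate 2, at a log2 fold change of -2.89 ± 1.06 (SE). With every gene that had a count, 4 of the 6 were tested and the same 2 were called, where 8.31% of all genes were called lower. In 4 of the 6 genes every c-Kit+ library lay below every c-Kit- library. That held for 35.8% of the genes past the filter, a set without Rhox4b and Rhox5, which are among the 4. Of the 36 other Rhox genes, 2 had over 3 counts in a sorted library, Rhox4a2 and Rhox4e. Rhox4a2 had 3 and 11.8 counts in c-Kit- cells and 0 and 1 in c-Kit+ cells, and was called lower without the filter, with an adjusted p that rounds to the threshold (0.05, edgeR). The median log2 fold change of the 389 X-linked genes tested was 0.19, beside 0.03 over all genes, with 64 called higher and 44 lower.

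**Figure D4:**
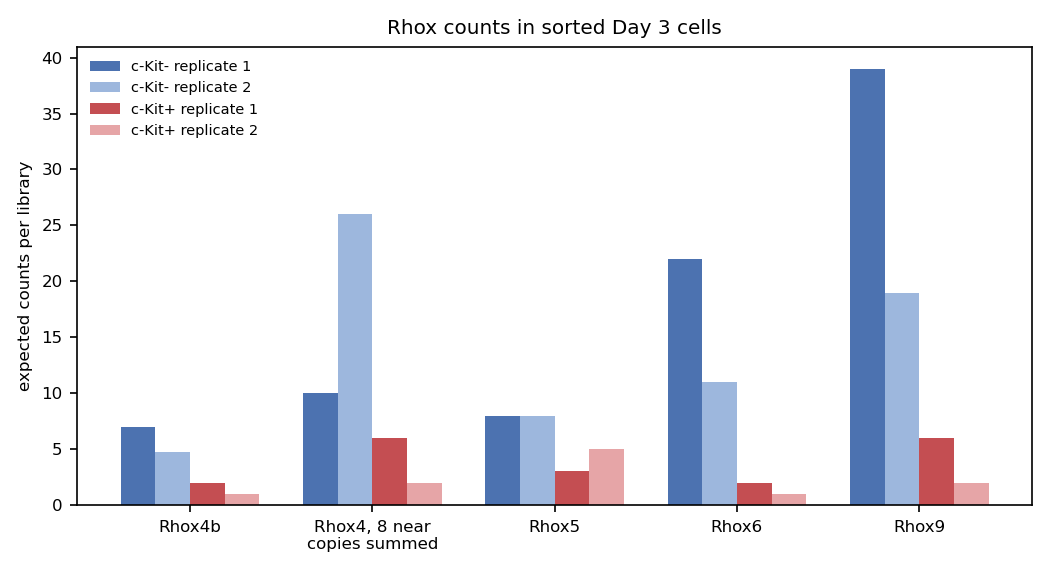
Expected counts per library, not scaled for depth, of Rhox4b, the sum of 8 Rhox4 copies, Rhox5, Rhox6 and Rhox9 in the 4 libraries of sorted Day 3 cells, 1 bar per library. Every c-Kit- bar stands above both c-Kit+ bars of its gene, and no bar passes 39 counts.

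Most trophoblast markers differed in the same direction. They summed to 17220 to 17520 TPM in c-Kit- cells and 2812 to 3686 TPM in c-Kit+ cells, and of 14 markers 11 were tested, 8 lower and 2 higher in c-Kit+ cells (median log2 fold change -2.28). Gata2, a trophoblast transcription factor, was at a mean of 411 TPM in c-Kit- and 41.9 TPM in c-Kit+ cells (adjusted p = 5.82e-07, edgeR). Krt7, a keratin, was at 44.0 and 0.38 TPM and passed the filter only through c-Kit- cells. Plac1, a placental gene, was at 176 and 7.96 TPM (adjusted p = 8.97e-06, edgeR). Cdx2 and Eomes, of trophoblast stem cells and of early mesoderm, were the 2 higher genes. Prl3d1 and Tpbpa had no count, and the part of trophoblast-like cells in the Rhox levels was not tested.

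Germ cell markers lay the other way at Day 3. In c-Kit+ cells 8 of the 10 PGC markers tested were called higher and none lower, where 9.98% of all genes tested were called higher. Kit, 1 of the 8, was the receptor used for the sort, so its call was set by the sort. The median log2 fold change was 5.02, or 4.36 with the gene at 0 set to its bound, beside 0.03 over all genes. Nanog and Sox2, which the paper names as pluripotency genes, were at a mean of 124 and 217 TPM against 0.24 and 0.79 TPM. Each was at 0 in a c-Kit- library. Nanos3 was at 69.0 TPM against 0. Nanog, Sox2 and Nanos3 passed the filter only through c-Kit+ cells, so their calls carry no test. Of the 20 methylation-sensitive germline genes none passed the filter. They summed to 2.06 to 3.00 TPM in c-Kit+ and 6.95 to 7.25 TPM in c-Kit- cells, and 13 of them, Dazl and Stk31 among them, had no count in the 4 libraries. Among 22 methylation and repressor genes tested (median 0.28), 4 were called higher in c-Kit+ cells, among them Tet1 and Suz12 (log2 fold changes 3.00 and 2.00, adjusted p of 7.5e-06 and 0.000327 by edgeR). Tet3 and Dnmt3a were lower (-1.21 and -1.17, adjusted p of 0.0026 and 0.000941 by edgeR), and Dnmt3b was not called, at 43.6 and 46.9 TPM in c-Kit+ and c-Kit- cells. Naive markers were called higher at 3 of 7 genes, primed markers at 3 of 6 with 2 lower, and endoderm markers at 1 of 3 with 2 lower, among them Sox17 (log2 fold change -3.02, adjusted p = 0.00531, edgeR).

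With SGC0946, Rhox9 and Rhox6 were higher and Rhox5 had the same count, in 1 library per condition and so with no replicate check. Rhox9 was at 84.8 TPM with and 35.4 TPM without the inhibitor (152 and 61.3 counts), a CPM ratio of 2.39 (95% counting interval 1.76 to 3.27). Rhox6 was at 41.4 and 28.3 TPM (88 and 56.7 counts), a ratio of 1.48 (1.05 to 2.10). Without SGC0946 the counts of both genes were not whole numbers, as when reads are divided between genes, and the intervals leave this out. Rhox5 had 24 counts in both libraries, a ratio of 0.958 (0.521 to 1.76). In TPM it was lower with the inhibitor, at 16.6 against 22.7, because the files give the gene a length of 754 bases with SGC0946 and 633 bases without. All 24 counts were given to the longer transcript in 1 library and to the shorter in the other. In log2 of CPM + 1 the Rhox5 difference was -0.05.

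The 8 Rhox4 copies had 7 counts in each library, with Rhox4b listed at 0 in both, and Rhox1 and Rhox10 had no count. Rhox8 had 8.36 and 9.02 counts, a ratio of 0.852 (0.286 to 2.49). All Rhox genes together were 1.70 times as high with SGC0946 (1.40 to 2.08), at 150.5 and 93.3 TPM, of which Rhox5, Rhox6 and Rhox9 made up 94.9% and 92.7%. Of the 6 genes 1, Rhox9, passed a 2-fold difference in TPM + 1 (log2 ratio 1.23), where 6.33% of 14038 genes were past it upward and 3.45% downward. The log2 ratio of Rhox6 was 0.53.

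PGC markers were past 2-fold higher with SGC0946 at 7 of 11 genes and lower at 1, and summed to 2685 TPM with and 1040 TPM without it. Trophoblast markers summed to 9260 TPM with and 14540 TPM without, past 2-fold higher at 1 of 10 genes (Eomes) and lower at 1 (Cdx2). Gata2 was at 82.1 and 95.1 TPM, Plac1 at 34.6 and 38.9 TPM, and Prl3d1 and Tpbpa had no count. The part of a shift in cell types in the Rhox9 and Rhox6 levels was not tested. Of 3 methylation-sensitive germline genes compared, Taf7l was past 2-fold lower, and of 23 methylation and repressor genes Dnmt3l was past 2-fold higher, at 3.85 against 0 TPM. Naive markers were past 2-fold higher at 4 of 8 genes.

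The levels of Rhox9 and Rhox6 were nearly equal in BV+SC+ cells, with TPM ratios of 1.11 and 1.04. The ratio was 2.05 with and 1.25 without SGC0946, and 2.06 and 2.00 in c-Kit- cells. Without SGC0946 the ratio rests on counts that were not whole numbers. In c-Kit+ cells it was 3.47 and 2.31, on at most 6 counts per gene.

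The transcripts behind these levels were also given by the deposited lengths. Rhox9 has transcripts of 882 and 2422 bases, and the longer took 0.156% and 0.179% of it in BV+SC+ cells and at most 1.25% in the Day 3 libraries with and without SGC0946. Rhox5 has transcripts of 633 and 754 bases that differ only at their ends, and the longer took 39.9% and 31.3% in BV+SC+ cells. Rhox6, Rhox1 and Rhox10 have 1 transcript each, of 1010, 883 and 763 bases.

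Genes without a Rhox name were ranked by their Euclidean distance to each gene in log2(TPM + 1) over the 7 libraries. Prdm1 (distance 1.89) and Tfap2c (2.12) were near to Rhox6, and the same genes were near to Rhox9, at 2.04 and 1.72. Prdm1 and Tfap2c encode transcription factors of PGC specification. Nearest to Rhox5 were Crip1 (2.90), Folr1 (2.96) and Ap3b2 (3.06), and nearest to Rhox1 were Gm17657 (0.09), Platr5 (0.10) and Adap2 (0.14), which like Rhox1 had no count outside BV+SC+ cells. Prdm1 marked the reporter by which BV+SC+ cells were sorted, so its place in that group was set by the sort.

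Over the 4 sorted libraries the nearest genes were others. They were Htra1 (0.32), St3gal1 (0.62) and Cbfa2t3 (0.76) for Rhox9, and Comp (0.50), Tnip2 (0.55) and Cox4i2 (0.57) for Rhox6. For Rhox5 they were Osbpl10 (0.31), Phyhip (0.32) and Ppip5k1 (0.33), and for Rhox4b Nsg1 (0.16), Itih5 (0.24) and Kcnn1 (0.26). There Prdm1 went against Rhox6, at 0.20 and 3.40 TPM in c-Kit- cells and 37.6 and 21.0 TPM in c-Kit+ cells, and Tfap2c was at 182 and 166 TPM against 193 and 181 TPM. With 7 and 4 libraries these distances describe the profiles and carry no test.

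**Figure D5:**
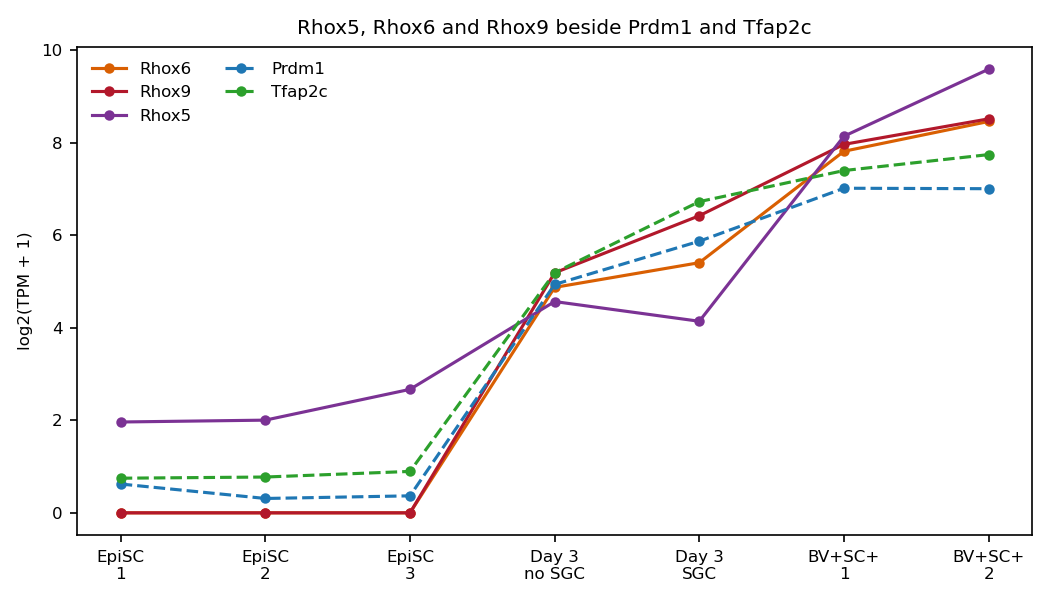
Level as log2(TPM + 1) of Rhox5, Rhox6 and Rhox9 (solid lines) and of Prdm1 and Tfap2c (dashed lines) in 7 libraries, which the lines join by group and not as a time course. Prdm1 and Tfap2c were, like Rhox6 and Rhox9, lower in EpiSCs than in BV+SC+ cells.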

How the data were processed

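Bulk RNA was sequenced in 11 libraries, grouped by their labels. Per the paper's methods, the authors aligned the reads to the GENCODE M13 transcriptome with Bowtie2 and quantified them with RSEM, for which the labels of 7 libraries give version 1.3.1. The authors deposited expected counts per gene, not normalized between libraries, TPM, which are scaled to transcript length and library, and the length of each gene. The methods describe an mRNA kit, while the labels of the 7 libraries outside the sort name a total RNA kit with ribosomal RNA removed. The members and the gene lists were chosen with earlier results of these data known.

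Symbols and positions came from GENCODE M21 (GRCm38), which named 99.56% of identifiers in the files of the sorted cells and 98.25% in the others. Expected counts were rounded, and edgeR 4.0.16 (R 4.3.3) was used to filter low counts (filterByExpr), scale by TMM and run the quasi-likelihood test, within the sorted cells and within EpiSCs and BV+SC+ cells. Genes were called at a Benjamini-Hochberg adjusted p under 0.05 over all genes tested with a fold change over 2. The SE is the log2 fold change over the square root of F. Ratios of counts have exact conditional 95% intervals. For SGC0946, the log2 ratio of TPM + 1 was taken over genes above 1 TPM in either library. Near copies share at least 98% over at least 75 bases (BLAST+ 2.17.0). Other steps used Python 3.11.15 with SciPy 1.17.1. Alternatives were DESeq2 1.42.0, RLE factors, other filters, the replicate block, an unadjusted p, summed copies and each replicate left out. On simulated data the fit recovered 98% of genes changed 4-fold in the sorted cells (10724 genes) and 100% in BV+SC+ cells against EpiSCs (11409 genes). No pair of replicates agreed within sampling noise (chi-square over degrees of freedom at least 2.01).

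The named genes are the 6 members, each other Rhox gene over 3 counts, the 3 genes nearest to a member in profile, Kit, Prdm1, Dppa3 and Dot1l, and up to 3 called genes per list with the largest change and a mean of at least 5 TPM. Other list genes were named after their values were seen. Another gene that the rule names is not reported here.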

Additional observations from a re-analysis of the deposited data

How the results depend on the processing

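Depth and the filter on low counts set most limits. With at least 10 counts in every library, no member was tested in either replicated comparison, so 0 were called. Leaving out each replicate, 1 to 2 members were called in the sorted cells and 0 to 4 other Rhox genes in BV+SC+ cells against EpiSCs (4 without BV+SC+ replicate 1). Without the filter, 1 other Rhox gene was called in the sorted cells and 7 in BV+SC+ cells. In BV+SC+ cells that fit leaves out each gene's own spread. With near copies summed, 1 was called in BV+SC+ cells, the Rhox4 copies, which passed the filter only through BV+SC+ cells. With SGC0946, 1373 genes were past 2-fold, 721 by CPM and 555 with TPM over 1 in both libraries. The numbers of called genes under DESeq2, RLE factors and an unadjusted p stayed within 1.5 times those reported, and the members' directions held in every alternative that tested them, with Rhox6 losing its call without c-Kit+ replicate 2. Without the filter the median of all genes in BV+SC+ cells moved to 0.29.

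Same-numbered libraries deviated together with a correlation of 0.067 in the sorted cells and of -0.03 and -0.006 in BV+SC+ cells and EpiSCs. With so few libraries per group, these values cannot show whether replicate numbers pair the samples. With the replicate block, 2527 genes were called in the sorted cells, against 2518 without it, and 3830 in BV+SC+ cells, against 4011.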
